A study of Mus musculus with 17 samples.

Results

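Start-point libraries 1, 6 and 7 of a study of fecal exosomes formed a set whose small RNA (smRNA) profiles were more alike than those of any other 3 start-point libraries, and they are set here against the other 7, libraries 2, 3, 4, 5, 8, 9 and 10. The set was chosen by a measured value: each of its pairs had a Spearman correlation of log2 CPM, the counts of a smRNA scaled to its library's total, above 0.85. It holds 3 of the 10 start-point libraries, in a series of 17. Because the same counts chose the sets, the differences between them are given as a description and were not tested.

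All 10 mice lacked interleukin 10 (IL-10 KO) on the C57BL/6J background, were obtained at 4 weeks of age and were housed 1 to a cage, and each start-point library came from a different mouse by its label. The labels give the time as start-point, without an age at collection, and no treatment or batch. Libraries 1, 6 and 7 came from males, and the other 7 came from 4 males and 3 females. Pellets were homogenised and passed through a filter, exosomes were precipitated, and libraries were made with the QIAseq miRNA kit, per the labels' protocols. Wild-type mice were not analysed here.

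Exosomes are small membrane vesicles that cells release, and those in feces can come from the gut wall, from blood cells that enter it, from microbes and from food. A microRNA (miRNA) is cut from a hairpin precursor whose 5p and 3p arms can each give a mature RNA, and it binds messenger RNAs mainly through its seed, the bases near its 5′ end. One arm is usually kept in the silencing complex while the other is degraded. Interleukin 10 restrains immune responses to gut bacteria, and mice without it develop colitis.

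The mature sequences below belong to miRNAs with large differences between the sets, and to close relatives with which they are compared. The higher ones are those with the largest differences, and the lower ones were picked to cover abundant miRNAs and those with a relative to compare. They are RefSeq sequences for assembly GRCm38.p6, written 5′ to 3′, with the seed (bases 2 to 8) in capitals. The first 6 were higher in libraries 1, 6 and 7.
miR-6976-5p: cAGGGAAGuugagaggaaaauug
miR-465b-5p: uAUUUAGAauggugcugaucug
miR-7003-3p: cCCCGGGUuuuccccacag
miR-7035-5p: gGCUGGGAgaguggcucagaa
miR-138-2-3p: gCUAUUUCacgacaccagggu
miR-7036a-5p: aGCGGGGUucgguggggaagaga
The next 6 were lower there.
miR-425-5p: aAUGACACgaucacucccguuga
miR-6347: cAGUGCGGcuggcuggagaugc
miR-484: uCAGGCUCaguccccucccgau
miR-3569-3p: uCAGUCUGcgcuccucuccagc
miR-107-3p: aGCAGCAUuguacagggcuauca
miR-7024-5p: uUGGGGGAuggguugcuuggc
The last 5 share a seed with a miRNA above.
miR-103-3p: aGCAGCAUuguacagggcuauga
miR-465a-5p: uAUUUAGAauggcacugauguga
miR-465c-5p: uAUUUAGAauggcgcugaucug
miR-6941-5p: cUGGGGGAcugacggguagcu
miR-7119-5p: cUGGGGGAuugggugccuucu
Counting from 1 at the 5′ end, miR-107-3p differs from miR-103-3p by C22G, and miR-465b-5p differs from miR-465c-5p by U13C. How reads that match such relatives were assigned is not given in the sources used here, so the split of counts between them is uncertain.

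The correlations that chose the set, over 1487 smRNAs, were 0.904 between libraries 6 and 7, 0.881 between 1 and 6, and 0.868 between 1 and 7. Among the other 7 libraries the 21 pairs had a mean of 0.750 ± 0.079 (SD), and the 21 pairs between the sets ran from 0.50 to 0.736 with a mean of 0.590. Of the other pairs, 2 also lay above 0.85, libraries 2 and 9 at 0.864 and libraries 3 and 9 at 0.859. The pair of libraries 3 and 5, at 0.849, lay just below it, as did that of 2 and 3, at 0.8499. Libraries 1, 6 and 7 were the only 1 of the 120 possible sets of 3 in which every pair was above 0.85. With all libraries cut at random to 87527 counts each, the lowest correlation within the set was 0.844, under the threshold.

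**Figure D1:**
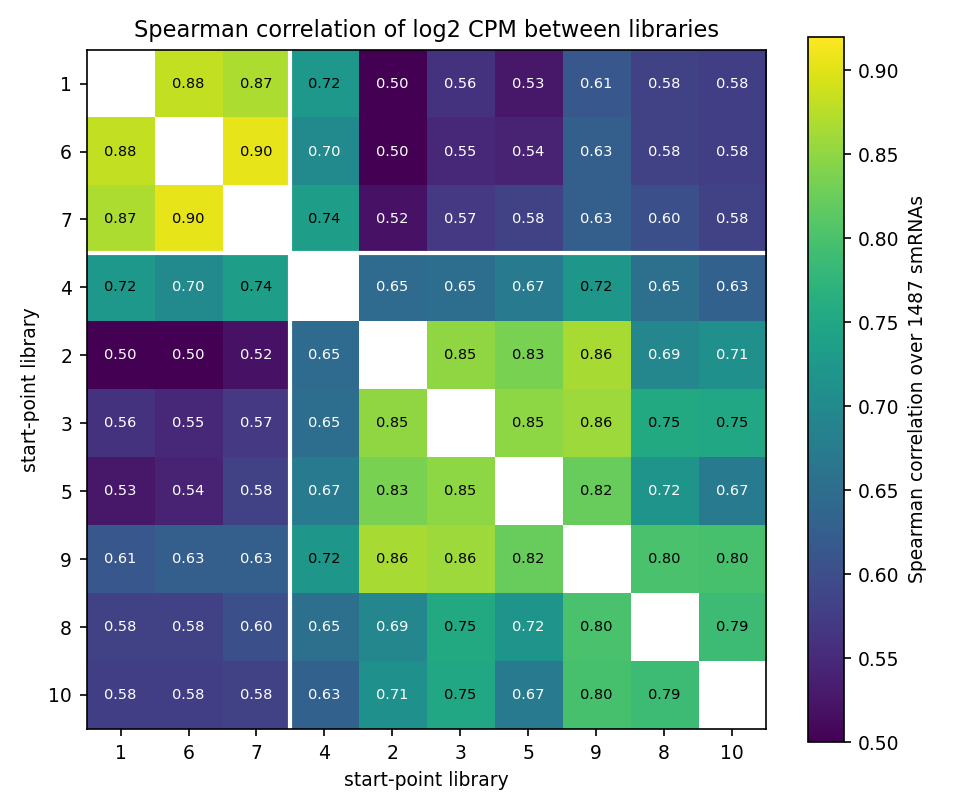
Spearman correlation of log2 CPM for each pair of start-point libraries, with both axes listing the libraries and colour giving the correlation over 1487 smRNAs. Libraries 1, 6 and 7 form a block of 0.868 to 0.904, and library 4 is the closest of the others to them.

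Library 4 stood nearest to the set. Its mean correlation with libraries 1, 6 and 7 was 0.719, above its mean of 0.663 with the other 6 libraries. Each remaining library had a lower mean correlation with the set, from 0.507 for library 2 to 0.623 for library 9, and a higher mean with the others, from 0.725 to 0.811. Among the smRNAs counted as different below, library 4 held the highest value of the 7 for 28 of the 78 that were higher in the set and the lowest for 100 of the 198 that were lower.

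Depth and sex were not used to choose the set, and they were tested. Total counts were 93138 in library 6, 155011 in library 1 and 171498 in library 7, and from 87527 to 178075 with a median of 138723 in the other 7. The mean log10 total differed by 0.00264, and the two-sided exact permutation test over 120 splits gave p = 0.975, where the smallest it can give is 0.00833. The set was male in 3 of 3 libraries and the others in 4 of 7, with a two-sided Fisher exact p of 0.475. Since 7 of the 10 libraries were male, an all-male set can give no lower p, so the test could not detect an excess of males. Adjusted over these 2 tests, the exact test p-values were 0.975 and 0.95. One count was worth 5.62 to 11.4 CPM, depending on the library. As a check for libraries deposited more than once, counts were compared by pair, and the lowest chi-square per degree of freedom was 10.1, so each library was kept as 1 sample.

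The most abundant smRNA of each of libraries 1, 6 and 7 was miR-6979-3p, the 3p arm of a hairpin RNA, which also led libraries 8 and 9. It held 17.8% of the counts of library 1 (95% Wilson interval 17.6 to 18.0%), 23.0% of library 6 (22.7 to 23.2%) and 18.9% of library 7 (18.7 to 19.1%). In the other 7 libraries it held from 0.751 to 7.87% with a median of 4.89%. Its values in the 3 libraries did not overlap with those in the others and spanned a narrow range, with a mean log2 CPM of 18.04 ± 0.09 (SD, n = 3) against 15.17 ± 1.43 (SD, n = 7). Intervals here cover counting error only.

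**Figure D2:**
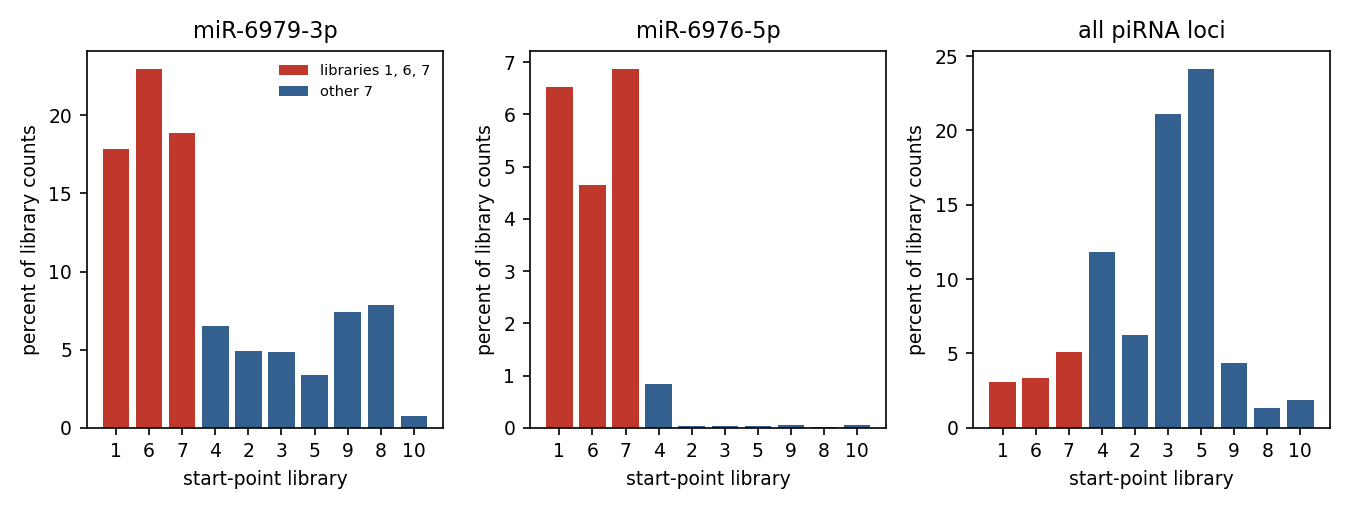
Percent of each start-point library's counts in miR-6979-3p, in miR-6976-5p and in all piRNA loci, as bars from 0 with 1 bar per library. miR-6979-3p holds 17.8 to 23.0% in the 3 libraries and at most 7.87% in the others.

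Other measures of composition were alike within the set. The 10 most abundant smRNAs of a library held 40.5 to 42.8% of the counts in libraries 1, 6 and 7 and 11.2 to 44.4% in the others. Of the others, the 4 males were at 34.1 to 44.4% and the 3 females at 11.2 to 23.1%. From 20 to 26 smRNAs made up 50% of the counts in the 3 libraries, and from 20 to 167 in the others. The other males had 20 to 42 and the females 75 to 167. At the same drawn depth of 87527 counts, libraries 1, 6 and 7 had 1415 to 1431 smRNAs with at least 1 count and the others had 1438 to 1466, without overlap.

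Differences across smRNAs were described for the 1320 with at least 100 counts over the 10 libraries, 1285 miRNAs and 35 loci of PIWI-interacting RNAs (piRNAs), the class best known for silencing transposons in the germline. A difference is the mean log2 CPM of libraries 1, 6 and 7 minus that of the other 7, scaled by TMM, a method that sets libraries to a common level from the bulk of their smRNAs. A smRNA was counted when the CPM values of the sets, taken on library totals, did not overlap and this difference was at least 1 in size. By that rule 78 were higher in the 3 libraries, 5.91% of those examined, and 198 were lower, 15%. With TMM scaling for the overlap as well, 163 were higher (12.3%) and 150 lower (11.4%), and with library totals for both, 75 were higher (5.68%) and 268 lower (20.3%). The share that was higher among those counted was thus 28.3% by the main rule, 52.1% with TMM and 21.9% with totals. All 78 of the higher and 150 of the lower smRNAs were also counted with TMM. The scaling moves every difference: the median over 1320 smRNAs was -0.05 with TMM and -0.62 with library totals.

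The counted smRNAs carried unequal parts of the libraries. The direction and the lack of overlap of these shares follow from the counting rule, so only their sizes are described. Those higher in the set held 43.4% of the counts of library 1, 46.2% of library 6 and 43.8% of library 7, against 4.69 to 13.7% in the others. Those lower in the set held 2.49 to 2.66% in the 3 libraries and 14.0 to 31.4% in the others. On the TMM scale the median difference was 2.74 for the higher ones and -1.61 for the lower ones. Overlap was judged on library totals, where the median over all smRNAs lies lower, so these 2 medians are not on equal terms. Abundant RNAs stood on both sides, such as miR-6979-3p and miR-6976-5p among the higher and miR-351-5p, miR-425-5p and miR-3569-3p among the lower, while piR_002643 and miR-3967 were not counted.

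**Figure D3:**
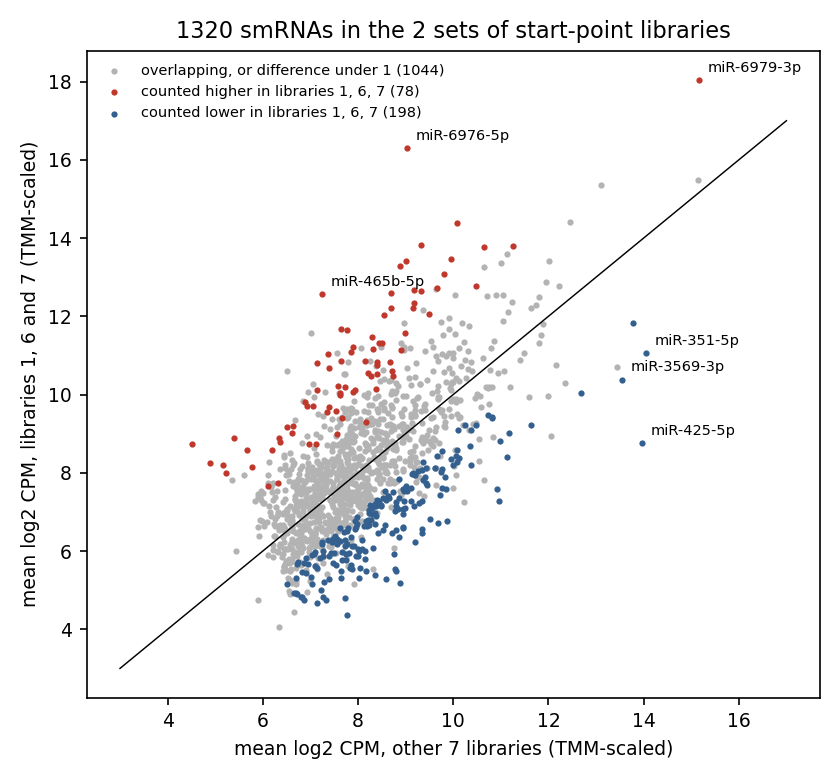
Mean TMM-scaled log2 CPM of 1320 smRNAs in libraries 1, 6 and 7 (vertical axis) against the other 7 libraries (horizontal axis), with 1 point per smRNA. Colours mark the 78 counted as higher and the 198 counted as lower, and miR-6976-5p and miR-425-5p lie farthest from the diagonal on their sides.

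The largest difference was that of miR-6976-5p, whose hairpin lies in an intron of Srf, the gene of serum response factor, with the mature RNA at chr17:46553862-46553884 on the minus strand (GRCm38.p6). Its CPM was 65260 in library 1, 46479 in library 6 and 68747 in library 7, and in the others it ran from 208 to 8485 with a median of 445. The next highest library after the 3 was library 4, and every other library was at 607 CPM or less. On the TMM-scaled log2 scale the means were 16.30 ± 0.46 (SD, n = 3) and 9.03 ± 1.96 (SD, n = 7), a difference of 7.27. The opposite arm, miR-6976-3p, was at 690, 623 and 350 CPM in libraries 1, 6 and 7 and at 168 to 953 CPM in the others, so the sets overlapped, with a difference of 0.63.

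miR-465b-5p, from a cluster on the X chromosome (chrX:66835811-66835832, minus strand, intergenic) known for expression in testis, had the next largest difference. It was at 4980 CPM in library 1, 3328 in library 6 and 5318 in library 7. The others ran from 33.8 to 3150 CPM with a median of 104, and library 4 held the 3150. The difference was 5.32 on the log2 scale, and the sets came to overlap when piRNA loci were left out of the library totals. Its relative miR-465a-5p was also counted as higher, at 955, 741 and 915 CPM in libraries 1, 6 and 7 against 91.4 to 536 CPM, a log2 difference of 2.63. miR-465c-5p, 1 base different from miR-465b-5p, was not counted, at 381, 183 and 99.1 CPM against 67.5 to 138 CPM.

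Other intron or exon miRNAs followed. miR-7003-3p, in an intron of Mybl2 (a cell cycle transcription factor), was at 7154 CPM in library 1, 6796 in library 6 and 25143 in library 7, with 308 to 3291 CPM and a median of 645 in the others. Library 7 was the highest here by far, and library 4 the highest of the other 7. The log2 difference was 4.50, from means of 13.83 ± 1.18 (SD, n = 3) and 9.33 ± 1.28 (SD, n = 7). miR-7035-5p, which overlaps an exon of Rasa4 (a regulator of Ras), was at 7303, 12734 and 4350 CPM in libraries 1, 6 and 7 and at 304 to 1505 CPM in the others, a log2 difference of 4.41. miR-7036a-5p, in an exon of Srrt, which acts in RNA processing, was at 18857, 14817 and 13697 CPM against 514 to 7783 CPM, a log2 difference of 4.30. For both, the sets did not overlap and library 4 was the highest of the other 7. miR-7055-3p, in an intron of Slc17a7 (a vesicular glutamate transporter), was at 3058, 3715 and 1201 CPM against 57.1 to 653 CPM, a log2 difference of 4.02.

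miR-138-2-3p is the 3p arm of 1 of the hairpins that also give miR-138-5p, a miRNA best known from neurons. It lies at chr8:94324359-94324379 on the plus strand, in an exon of the transcript C78859. Libraries 1, 6 and 7 were at 7941, 10017 and 6408 CPM, and the others ran from 194 to 2246 CPM with a median of 720, a log2 difference of 4.41. The 3p arm of the other hairpin, miR-138-1-3p, was counted as lower, at 32.3, 32.2 and 40.8 CPM against 44.9 to 513 CPM, a log2 difference of -1.49, and it was not counted when the overlap was judged with TMM. The shared 5p arm, miR-138-5p, was at 4735, 3210 and 2816 CPM against 1081 to 19981 CPM, with overlapping sets.

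miR-142a-3p is a miRNA of blood cells, and its hairpin lies in an intron of Mir142hg (mature RNA at chr11:87756903-87756925, plus strand). Its CPM was 2858 in library 1, 2223 in library 6 and 2035 in library 7, and in the others it ran from 80.0 to 1218 with a median of 184. Library 10 held the highest of those values, followed by library 4 at 477 CPM, and the log2 difference was 3.88. miR-1933-3p, in an intron of Ugp2, and miR-7058-5p, which overlaps an exon of Lat, had log2 differences of 3.90 and 3.69, and library 1 was the highest for both, at 9328 and 3993 CPM. For miR-1933-3p, library 7 at 2764 CPM lay close to library 4 at 2448 CPM.

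The largest difference in the other direction was that of miR-425-5p, at chr9:108568789-108568811 on the plus strand in an exon of 4833445I07Rik. It was at 252 CPM in library 1, 236 in library 6 and 490 in library 7, and from 1723 to 49966 CPM with a median of 19768 in the others. Library 10 was the lowest of the other 7, and library 4, at 41606 CPM, was here among the highest. The log2 means were 8.76 ± 0.69 (SD, n = 3) and 13.97 ± 2.06 (SD, n = 7), a difference of -5.21. miR-191-5p lies 464 bp upstream in the same gene, and the pair is known to be transcribed together. Its sets overlapped, at 471, 505 and 227 CPM against 263 to 581 CPM, with a log2 difference of 0.56.

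miR-6347, an intergenic miRNA at chr1:167290125-167290146 on the plus strand, was at 96.8, 96.6 and 117 CPM in libraries 1, 6 and 7. In the others it ran from 152 CPM in library 4 to 7151 CPM in library 3, with a median of 2856, and the log2 difference was -3.70. miR-484, at chr16:14159630-14159651 on the plus strand and known to be made without Drosha, was at 110, 150 and 134 CPM against 612 to 4044 CPM with a median of 2778, a log2 difference of -3.34. For both, library 4 was the lowest of the other 7. The spread of miR-484 was small in each set, with an SD of log2 CPM of 0.17 and 0.66.

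miR-3569-3p is among the most abundant miRNAs of the other 7 libraries, and lies at chr7:30589416-30589437 on the plus strand, outside annotated genes. It was at 1071, 805 and 1050 CPM in libraries 1, 6 and 7. The others ran from 52043 CPM in library 5 and 41283 in library 3 to 1629 CPM in library 4, with a median of 10864, and the log2 difference was -3.18. Its 5p arm, miR-3569-5p, was at 206, 204 and 111 CPM against 135 to 526 CPM, a log2 difference of -0.16.

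miR-107-3p is encoded in an intron of Pank1, a pantothenate kinase of coenzyme A synthesis, at chr19:34820700-34820722 on the minus strand. It was at 83.9, 64.4 and 64.1 CPM in libraries 1, 6 and 7 and at 253 to 3370 CPM with a median of 1053 in the others. The 3 females held the highest values, from 1875 to 3370 CPM, and library 4 the lowest of the 7. The log2 difference was -3.10. miR-103-3p, from introns of Pank2 and Pank3 and sharing its seed, was at 32.3, 96.6 and 29.2 CPM against 50.5 to 392 CPM, with overlapping sets and a log2 difference of -0.86.

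The remaining miRNAs with the largest differences below 0 were near the limit of the counts in libraries 1, 6 and 7. miR-6972-5p was at 6.45, 32.2 and 17.5 CPM, against 124 to 1428 CPM. miR-7024-5p, in an intron of Nelfa, was at 38.7, 10.7 and 11.7 CPM, against 95.5 to 1110 CPM. miR-3067-3p, in an intron of Smoc1, was at 38.7, 10.7 and 23.3 CPM against 168 to 881 CPM, and miR-7069-3p, in an intron of Farsa, at 45.2, 10.7 and 23.3 CPM against 210 to 1567 CPM. Their log2 differences ran from -3.69 to -3.23, with prior counts that pull such low values together.

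**Figure D4:**
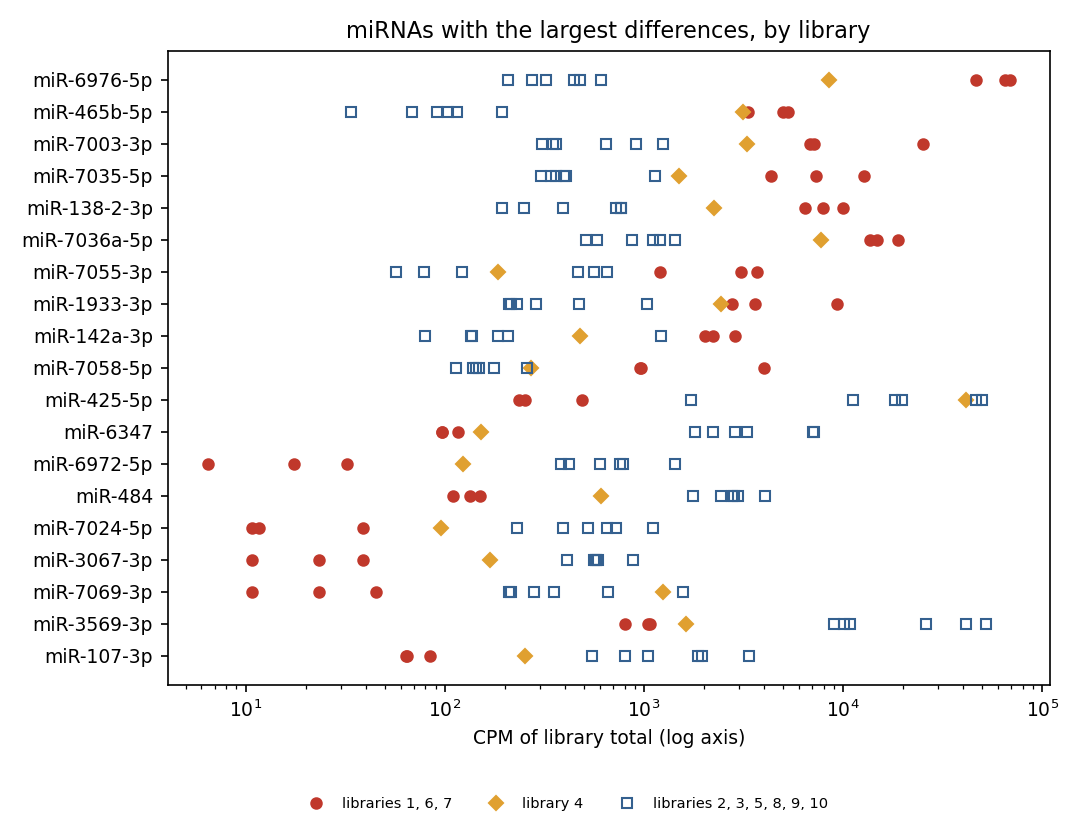
CPM of library total, on a log axis, for the miRNAs with the largest differences in either direction, with 1 symbol per start-point library and 1 row per miRNA. Libraries 1, 6 and 7 lie on 1 side of the others in each row, as the counting rule requires. Library 4 lies close to them for miR-465b-5p (3150 CPM) and miR-1933-3p (2448 CPM) and far from them for miR-425-5p (41606 CPM).

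Abundant smRNAs did not all differ. piR_002643, whose deposited name places it on chromosome 3 from 5843705 to 5843732, was the piRNA locus with the most counts. It was at 27772, 29247 and 46356 CPM in libraries 1, 6 and 7, and from 8218 to 203966 CPM with a median of 33841 in the others, so the 3 lay inside the range of the 7. Its log2 difference was 0.34 with TMM and -0.29 with library totals. miR-3967, in an intron of Gad2, was at 36984, 26724 and 30269 CPM against 1975 to 30804 CPM, and miR-7240-5p at 20786, 13571 and 14338 CPM against 1968 to 19204 CPM. Library 8 held the highest of the other 7 for both, inside the range of the 3, and neither was counted, although miR-3967 was when the overlap was judged with TMM.

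Among the 35 piRNA loci none was counted as higher and 8 were counted as lower, which is 22.9% beside 15% over all smRNAs. With TMM for the overlap 4 were lower, 11.4% beside 11.4% over all smRNAs. Their median log2 difference was -1.17, beside -0.05 over all 1320 smRNAs, and 33 of the 35 were below 0. The total share of counts in piRNA loci nevertheless overlapped, at 3.11, 3.36 and 5.12% in libraries 1, 6 and 7 and 1.35 to 24.2% in the others. The locus with the largest difference was piR_000536, named for chromosome 17 from 39454802 to 39454827. It had 0 counts in library 1, which allows a share of up to 0.00194%, and was at 10.7 CPM in library 6 and 5.83 CPM in library 7. In the others it ran from 24.0 CPM in library 8 to 628 CPM in library 2, a log2 difference of -3.41.

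A few abundant miRNAs divided the 3 libraries themselves. miR-654-3p, of the imprinted Dlk1-Dio3 region on chromosome 12, was at 83.9 CPM in library 1 but at 8686 in library 6 and 13924 in library 7, with 33.8 to 518 CPM in the others. miR-547-3p was at 5180 and 2663 CPM in libraries 1 and 6 and at 99.1 CPM in library 7, while library 4 was at 9052 CPM and the remaining 6 at 0 to 137 CPM. let-7e-3p was at 110 CPM in library 1, 1428 in library 6 and 2227 in library 7, while the others spanned 111 to 5335 CPM, again with library 4 the highest. Their ranges within the 3 libraries were 7.29, 5.51 and 4.30 on the log2 scale.

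The defining miRNAs of cell types were examined as lists, and their part in the contrast was not tested. In such bulk samples, fewer vesicles from a cell type and less of a miRNA per vesicle cannot be told apart. Of 10 intestinal epithelium miRNAs none was counted, with a median log2 difference of 0.52 that was -0.07 with library totals. Their summed level was 8750 to 11444 CPM in libraries 1, 6 and 7 and 3899 to 20115 CPM in the others. The members ran from -0.74 for miR-31-5p to 2.52 for miR-375-3p, with 6 above and 4 below 0, while with library totals 4 were above 0. miR-375-3p, of enteroendocrine cells, was at 5774, 3414 and 4350 CPM, and the others were at 584 to 1238 CPM apart from library 4 at 7143 CPM. miR-192-5p, of enterocytes and liver, was at 2684, 2652 and 2694 CPM, inside a range of 448 to 6313 CPM in the others. miR-194-5p, also of enterocytes, was at 419, 290 and 321 CPM against 197 to 6658 CPM, and miR-31-5p, raised in inflamed epithelium, at 71.0, 118 and 198 CPM against 183 to 569 CPM.

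Of 8 leukocyte miRNAs 1, miR-142a-3p, was counted as higher, and the list had a median of 0.62 (0.04 with library totals) and a summed level of 3942 to 5058 CPM against 2091 to 4722 CPM. Of 4 smooth muscle and stromal miRNAs 1 was counted as lower. It was miR-143-3p, abundant in smooth muscle, at 200, 215 and 122 CPM against 368 to 1222 CPM, a log2 difference of -1.21, and with TMM for the overlap it was not counted. All 4 were below 0, with a median of -1.05, and the 6 listed members in the table, 2 of them too low to be analysed, summed to 455 to 601 CPM against 1029 to 2004 CPM, without overlap. The red cell list had 2 analysed members: miR-486b-5p was lower, at 58.1, 32.2 and 17.5 CPM against 107 to 223 CPM, while miR-486a-5p had a log2 difference of 1.94. Reads of these names may not be separable, so the split of counts between them is uncertain. miR-451a, the most abundant miRNA of red cells, had 0 counts in libraries 1, 6 and 7, which allows a share of up to 0.00322% in the shallowest of them, and also in 5 of the other 7. Only libraries 3 and 9 had counts of it, at 27.0 and 38.4 CPM.

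Of 5 striated muscle miRNAs 1 was counted, and the list had a median of 1.13 (0.57 with library totals), with 4 above and 1 below 0. The 1 below 0 was miR-499-5p, at 96.8, 42.9 and 29.2 CPM against 39.3 to 880 CPM, a log2 difference of -1.70 with overlapping sets. miR-133b-3p was at 1019, 2223 and 2093 CPM in libraries 1, 6 and 7 and at 149 to 841 CPM with a median of 311 in the others, a log2 difference of 2.85. miR-133a-3p, its close relative, was at 1922 and 1703 CPM in libraries 6 and 7 but at 135 CPM in library 1, inside the 56.2 to 562 CPM of the others. The only liver miRNA analysed had a log2 difference of -0.43 and was not counted. Among 7 neuron miRNAs 1 was higher and 2 were lower, with a median of 0.58 that was -0.05 with library totals. miR-9-3p was at 781, 548 and 641 CPM against 68.6 to 241 CPM, a log2 difference of 2.93. miR-9-5p, from the same hairpins, was at 6.45, 21.5 and 23.3 CPM against 24.0 to 180 CPM, a difference of -1.35, and it was not counted with TMM for the overlap or over miRNAs only. miR-124-3p was at 58.1, 32.2 and 58.3 CPM against 95.5 to 317 CPM, a difference of -1.15, and it was not counted at drawn depth or without library 6.

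In the miR-125 and miR-351 family, relatives whose 5p arms share a seed, 4 of 7 arms were lower and none was higher, with a median of -1.22 (-1.82 with library totals). Their summed level was 5411 to 7090 CPM in libraries 1, 6 and 7 and 30161 to 101489 CPM in the others. miR-351-5p was at 1058, 1675 and 2093 CPM, against 3763 to 78273 CPM with a median of 20941, a log2 difference of -3.01, although with TMM its sets overlapped. miR-125a-3p was at 4374, 1664 and 2583 CPM against 8758 to 34315 CPM, a difference of -1.94. miR-125b-1-3p and miR-351-3p, at 181 to 193 and 77.4 to 118 CPM in the 3 libraries, had differences of -1.22 and -1.53. The lower arms other than miR-351-5p were thus 3p arms, outside the shared 5p seed. The 5p arms miR-125a-5p and miR-125b-5p had differences of 0.53 and 0.76 (-0.05 and 0.14 with library totals), with overlapping sets.

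In the miR-30 family 2 of 4 guide arms were lower, miR-30b-5p at 51.6, 21.5 and 40.8 CPM against 176 to 526 CPM and miR-30e-5p at 168, 204 and 152 CPM against 231 to 1451 CPM. miR-30e-5p was not counted with TMM for the overlap, at drawn depth or without library 5. The list's median was -1.05. In the let-7 family 1 of 6 guide arms was lower, let-7e-5p at 45.2, 53.7 and 46.6 CPM against 152 to 331 CPM, a log2 difference of -1.25, while the list's median was 0.28 with TMM and -0.25 with library totals. In the miR-17 to miR-92 family 1 of 7 was higher, miR-19b-3p at 187, 140 and 99.1 CPM against 30.7 to 98.3 CPM, which was not counted in male libraries only or over miRNAs only. That list's median also changed sign with the scaling, from 0.47 to -0.16. The share counted over all smRNAs, 5.91% higher and 15% lower, stands beside these counts, and no list was tested against it.

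The arms of a hairpin were compared next. Over the 347 hairpins with both arms analysed, the differences of the 5p and 3p arms had a Pearson correlation of 0.01, a description across hairpins measured in the same libraries, and the same sign in 172, or 49.6%. Both arms were lower in 9 hairpins and both higher in none, and in 8 the arms were counted in opposite directions. These 8 were miR-139, miR-298, miR-1224, miR-1948, miR-6979, miR-7011, miR-7242 and miR-9. With TMM for the overlap, 6 of these 8 remained, without miR-7242 and miR-9, and so did 6 of the 9. Over all smRNAs 5.91% were higher and 15% lower, or 12.3% and 11.4% with TMM. Whether the counts of hairpins differ from what these shares would give was not tested. The 5p arm miR-139-5p, from an intron of the phosphodiesterase gene Pde2a, was at 6251, 4617 and 1458 CPM in libraries 1, 6 and 7 and at 297 to 1038 CPM in the others, a log2 difference of 3.51. miR-139-3p was at 32.3, 96.6 and 81.6 CPM against 163 to 616 CPM, a difference of -1.57. For miR-6979, whose 3p arm led the 3 libraries, the 5p arm was at 290, 354 and 192 CPM against 554 to 2754 CPM, a difference of -1.49.

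**Figure D5:**
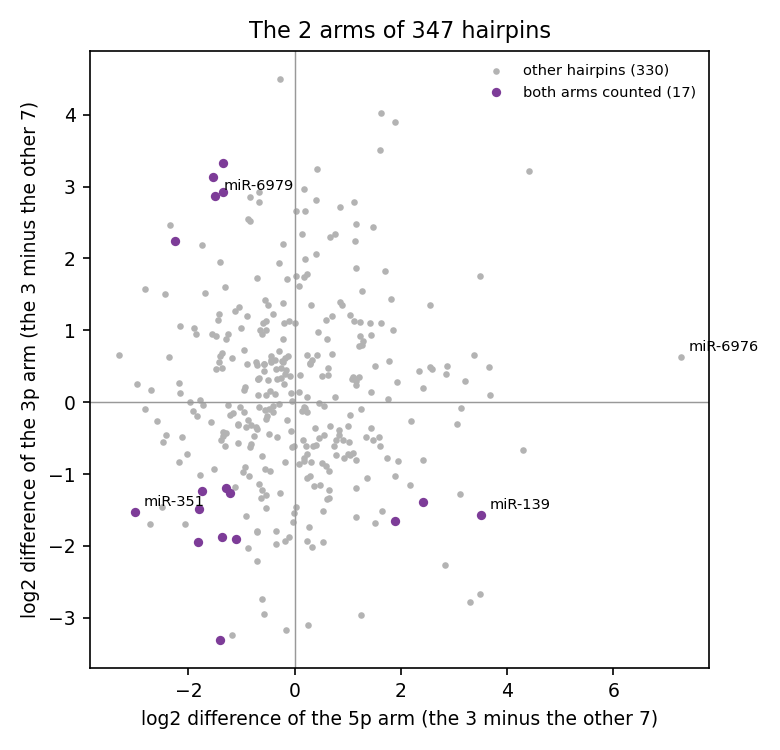
Log2 difference (libraries 1, 6 and 7 minus the other 7) of the 3p arm against that of the 5p arm for 347 hairpins, with 1 point per hairpin. Points scatter without a common trend (Pearson correlation 0.01), and among the hairpins with both arms counted 8 lie in the quadrants of opposite sign and 9 in the lower left.

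Base composition was compared for the 1123 of 1285 miRNAs matched to a RefSeq sequence. The median GC content was 54.5% over all of them, 52.4% over 69 that were higher and 59.1% over 156 that were lower. In libraries 1, 6 and 7 the Spearman correlation of a miRNA's log2 CPM with its GC content was from -0.05 to -0.01. It was 0.007 in library 4 and from 0.13 to 0.26 in the others. These are descriptions across miRNAs, which share their library's preparation. The mean GC content weighted by counts was 54.3 to 54.5% in the 3 libraries and 55.5 to 58.3% in the others. The motif GGAG, searched on the mature strand only, was in 16.9% of all miRNAs, 23.2% of the higher and 20.5% of the lower ones.

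miRNAs that share a seed were also grouped. Of 250 such miRNAs 15 were counted as higher (6%) and 31 as lower (12.4%), beside 5.91 and 15% over all smRNAs. Of their 103 seeds, 39 had a counted member and 1 had members in both directions. The seed UGGGGGA had all 3 of its members lower, miR-6941-5p by a log2 difference of -1.11, miR-7024-5p by -3.32 and miR-7119-5p by -1.99. Both members of the seeds GGAGCCA and GGCAGCU were lower, as were 2 of 3 of AGGGAGG. The seed AUUUAGA had 2 of 3 members higher, miR-465a-5p and miR-465b-5p. The seed AUUGCAC of miR-25 and miR-92a had none of 5 counted.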

How the data were processed

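Fecal exosome smRNAs were sequenced, and the authors deposited whole-number counts per smRNA and library, without normalization in the values. The submitters' processing notes name bcl2fastq and GRCm38. The aligner, the counter, the annotation and any use of the kit's molecular identifiers on these counts are not given in the sources used here, and PCR copies may remain. The 10 start-point libraries were used and the 7 end-point libraries were not. The members, lists and counting rule were chosen with earlier results of these data known.

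Log2 CPM (edgeR 4.0.16 in R 4.3.3) was computed over all 1487 smRNAs with TMM factors and prior count 2. A filter of 100 counts summed over the 10 libraries was applied afterwards. CPM values printed for a library are counts over its total. A smRNA was counted when these did not overlap between the sets and the TMM-scaled log2 difference was at least 1. No count model was run across smRNAs, because the same counts had chosen the sets. Totals were compared by an exact permutation test and sex by Fisher's exact test (Python 3.11.15, scipy 1.17.1). Named smRNAs were the 10 with the largest counted differences in each direction at a mean of at least 200 CPM, the 5 most abundant of each set, the 3 with the largest range within the 3 libraries at a mean of at least 1000 CPM, the counted list members and the piRNA with the most counts. Opposite arms and relatives of these, and miR-139-5p, miR-375-3p, miR-192-5p, miR-194-5p, miR-31-5p, miR-451a, miR-485-5p, miR-499-5p, miR-532-5p and miR-486a-5p, were named after their values were seen. Positions and host genes are from GRCm38.p6 and its GENCODE annotation. The code was checked on simulated data with 200 changed smRNAs and sets fixed in advance, which does not test the contrast itself. Alternatives covered scaling (including DESeq2 1.42.0 size factors), filters, prior count, depth, male libraries, miRNAs only and leaving out each library.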

Additional observations from a re-analysis of the deposited data

Results flagged for a closer look

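Of 47 series of 10 start-point values examined, 6 had an extreme library. Its gap to its nearest neighbour, as a share of the whole range, exceeded Dixon's 95% critical value. That value assumes normal data, while most series were CPM of smRNAs picked from these same counts, so no chance rate is set beside the 6. The number of smRNAs that make up 50% of counts was 167 in library 10, apart from the other 9. miR-7003-3p was at 25143 CPM in library 7, miR-1933-3p at 9328 CPM and miR-7058-5p at 3993 CPM in library 1. By the counting rule, the lowest of libraries 1, 6 and 7 lay above the highest of the other 7 for each of these 3 miRNAs. miR-351-5p was at 78273 CPM in library 2, and let-7e-3p at 5335 CPM in library 4.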

How the results depend on the processing

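The counts moved with the filter, the libraries and the scaling. With at least 500 counts, 81 of 490 smRNAs were lower, beside 198 of 1320 by the main rule. With male libraries only 148 of 1067 were higher, and with TMM for the overlap as well 163 of 1320, beside 78 of 1320. That last setting, the correlations without single libraries and 2 others were chosen after the data were seen. Leaving out each library in turn gave 78 to 103 higher and 189 to 263 lower. With fewer libraries a lack of overlap is easier to reach, and the number of smRNAs analysed also changed. The lowest correlation within the 3 libraries was 0.888 as a Pearson correlation, 0.844 at drawn depth, and 0.868 to 0.904 with a library left out, and the highest of any other pair was then 0.8499 to 0.864. The difference of mean log10 totals ran from -0.0489 to 0.0837 and changed sign without library 1 (-0.0269), 2 (-0.0284), 7 (-0.0489) or 8 (-0.00268). Of 832 values of named smRNAs under 21 settings none changed sign while counted, and 27 of 35 counted ones were counted under every setting that analysed them. The cause was not tested. One count is worth up to 11.4 CPM, which limits the precision of low values. No paired analysis was possible because all libraries were from 1 time point and 10 different mice.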

Other observations

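Neighbouring miRNA genes were examined in runs of at least 8 analysed mature miRNAs spaced by under 10000 bp (GRCm38.p6). Some analysed mature miRNAs of these regions, among them some within that spacing, were not placed in a run. The counts of a run are thus not those of its whole region. The longest run, of 34 mature miRNAs in the imprinted Dlk1-Dio3 region (chr12:109709065-109747949), had none higher and 8 lower in libraries 1, 6 and 7, with a median log2 difference of -0.13. miR-485-5p, the other arm of its member miR-485-3p, was not among the 34 and was counted as higher, at a log2 difference of 1.44. Over all smRNAs 5.91% were higher and 15% lower. Upstream of the longest run, 14 mature miRNAs (chr12:109585818-109595028) had 1 higher and 2 lower. On the X chromosome, 16 from miR-743a to miR-465d (chrX:66776760-66822677) had none counted. miR-465b-5p and miR-465a-5p, which lie beyond that run from chrX:66835811 to 66839121, were not among the 16 and were counted as higher. Between them and the run lies miR-465c-5p (from chrX:66826004 and chrX:66832566), also left out and not counted. With it included, the spacing up to miR-465a-5p stays under 10000 bp, so by spacing alone these miRNAs would join the run. In the miR-500 and miR-532 run (chrX:7237695-7248440) 2 of 9 were lower. miR-532-5p, the other arm of its member miR-532-3p, was not among the 9 and was counted as higher, at a log2 difference of 3.49. The run of miR-351, miR-503 and miR-450 (chrX:53048044-53054289) had 2 higher and 3 lower of 8.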
